A study of Mus musculus with 48 samples.

Results

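The cytosolic ribosomal protein genes were taken from the mouse gene table by name, as every gene whose symbol is Rpl, Rps or Rplp followed by a number. The 10 Rps6k kinase genes and the 8 entries named with -ps were left out. This gave 86 of the 36935 genes. Of these, 76 are the core genes, with 30 of the small subunit, 43 of the large subunit and 3 of the stalk. The other 10 are genes counted here as extra copies of core genes (Rpl3l, Rpl7l1, Rpl10l, Rpl22l1, Rpl36al, Rpl39l, Rps27l, Rps27rt and Rps23rg1) and Rps19bp1. Rps19bp1 matches by name but encodes a binding partner of the Rps19 protein and no ribosomal protein. Whether each extra copy encodes a ribosomal protein was not examined. Rpsa, Fau and Rack1, which also belong to the ribosome, fall outside the naming pattern and are given separately.

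RNA was sequenced from 4 genotypes at 4 times, with 3 libraries in each of the 16 groups. The knockout lines were KAT6A-/- (KAT6A knockout), KAT6B-/- (KAT6B knockout) and KAT6A-/-; KAT6B-/- (double knockout), all made in the mouse embryonic stem cell line E14, and E14 wild-type cells were their control. KAT6A and KAT6B are histone lysine acetyltransferases. How the alleles were made and how many clones stand for each knockout is not given in the labels. Day 0 cells of every genotype grew in serum with LIF, the cytokine that keeps stem cells undifferentiated. Day 2 cells were embryoid bodies 2 days after LIF was removed, day 6 embryoid bodies had received 10 μM all-trans retinoic acid from day 4, and day 15 cells had been dissociated and plated at day 8 and kept in N2 and then B27 medium. The 3 replicates are separate differentiation experiments per the series text, and the p-values measure the spread between them.

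A ribosome joins a small subunit, which reads the mRNA, to a large subunit, which forms the peptide bond, and each is built from ribosomal RNA and one copy of most ribosomal proteins. The stalk, made of Rplp0 with pairs of Rplp1 and Rplp2, calls in the translation factors. Most ribosomal protein mRNAs begin with a C and a run of pyrimidines, the terminal oligopyrimidine tract, through which mTOR signalling controls their translation. Pluripotent stem cells are known for high output of ribosome components and neurons for a lower rate of ribosome production.

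The windows below run from 25 bases before to 25 bases from the annotated start, 5′ to 3′ on the gene's strand, from RefSeq (build GRCm38.p6), with the longest pyrimidine run in capitals. The first 5 are shown because the tract lies at the annotated start, the next pair because those genes had the largest falls of the core set at day 15, and the last 4 because they set a core gene beside its low copy.
Rps27, chr3:90213624-90213673, minus strand: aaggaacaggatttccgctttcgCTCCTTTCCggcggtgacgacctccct
Rps6, chr4:86857343-86857392, minus strand: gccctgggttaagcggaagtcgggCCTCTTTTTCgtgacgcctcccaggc
Rpl28, chr7:4792940-4792989, plus strand: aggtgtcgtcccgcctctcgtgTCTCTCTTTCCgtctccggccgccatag
Rpl35, chr2:39005107-39005156, minus strand: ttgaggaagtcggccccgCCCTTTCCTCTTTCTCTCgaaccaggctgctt
Rpl15, chr14:18270962-18271011, minus strand: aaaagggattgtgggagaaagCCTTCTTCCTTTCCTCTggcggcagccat
Rps2, chr17:24720038-24720087, plus strand: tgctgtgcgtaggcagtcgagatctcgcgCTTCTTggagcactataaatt
Rpl12, chr2:32961687-32961736, plus strand: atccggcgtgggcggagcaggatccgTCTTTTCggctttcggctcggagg
Rpl39, chrX:37085198-37085247, minus strand: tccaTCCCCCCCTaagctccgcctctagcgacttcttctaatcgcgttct
Rpl39l, chr16:10170203-10170252, plus strand: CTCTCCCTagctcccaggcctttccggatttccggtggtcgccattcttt
Rpl10, chrX:74270791-74270840, plus strand: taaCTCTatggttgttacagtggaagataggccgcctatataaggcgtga
Rpl10l, chr12:66284377-66284426, minus strand: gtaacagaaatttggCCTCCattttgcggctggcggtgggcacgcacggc

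RefSeq held a promoter for 66 of the 86 genes, 56 core and 10 others. A run of at least 8 pyrimidines lay in the 50-base window of 30 of 56 core genes (53.6%), of 4 of the 10 others and of 22.3% of 27025 genes with a promoter. A C followed by 4 pyrimidines lay exactly at the annotated start in 13 of 56 core genes (23.2%), in 1 of the 10 others and in 3.01% of all. Of 5 further motifs searched on the gene's strand in the 50 bases or, for the last 3, on both strands in 300 bases around the start, CTTTCC was found in 17.9% of core genes against 2.92% of all, CTTTTC in 8.93% against 2.07%, CCGGAAGT in 17.9% against 4.31%, AAGATGGC in 8.93% against 3.19% and CACGTG in 10.7% against 8.09%. CTTTCC and CTTTTC are themselves made of pyrimidines and overlap the runs. The annotated start decides whether a tract is found, and genes with several annotated starts count once if any start holds it.

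Total counts per library ran from 22499375 to 72229461, and 84 members had a count in every library. Kat6a stood at 50.2% to 66.9% of its E14 level in the KAT6A knockout and at 59.8% to 75.2% in the double knockout. Kat6b stood at 59.8% to 96.3% in the KAT6B knockout and at 65.4% to 94.6% in the double knockout. Transcripts of the targeted genes were still counted, and where the deletions lie in the genes is not given in the labels. Levels are given as CPM, counts set relative to each library's total, scaled by the trimmed mean of M values (TMM) over all 48 libraries. In E14, the 8 neuron markers summed to 1481 to 2666 CPM at day 15 against 344 to 366 CPM at day 0. The 6 mesenchyme markers summed to 2004 to 4341 CPM at day 15 against 192 to 301 CPM at day 0, and the 6 endoderm markers to 833 to 1247 CPM against 24.99 to 36.1 CPM. The day 15 cultures held transcripts of several cell types, and no marker of these lists was at 0 in an E14 group.

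The 86 genes together took 4.59% ± 0.394 of all counts in E14 cells at day 0, 5.25% ± 0.304 at day 2, 4.75% ± 0.628 at day 6 and 1.91% ± 0.144 at day 15 (SD, n = 3 each). The 3 day 15 libraries (1.75%, 2.03% and 1.95%) lay below all E14 libraries of the earlier days, of which the lowest had 4.04%. The knockout lines followed the same course. The share at days 0, 2, 6 and 15 averaged 4.33%, 5.77%, 4.66% and 1.89% in the KAT6A knockout, 4.18%, 5.60%, 4.47% and 2.13% in the KAT6B knockout, and 3.95%, 5.10%, 4.16% and 1.75% in the double knockout. The small-subunit genes made up 37.3% to 39.9% of the members' counts in each of the 48 libraries. In bulk samples fewer cells of a type and less RNA per cell cannot be told apart.

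**Figure D1:**
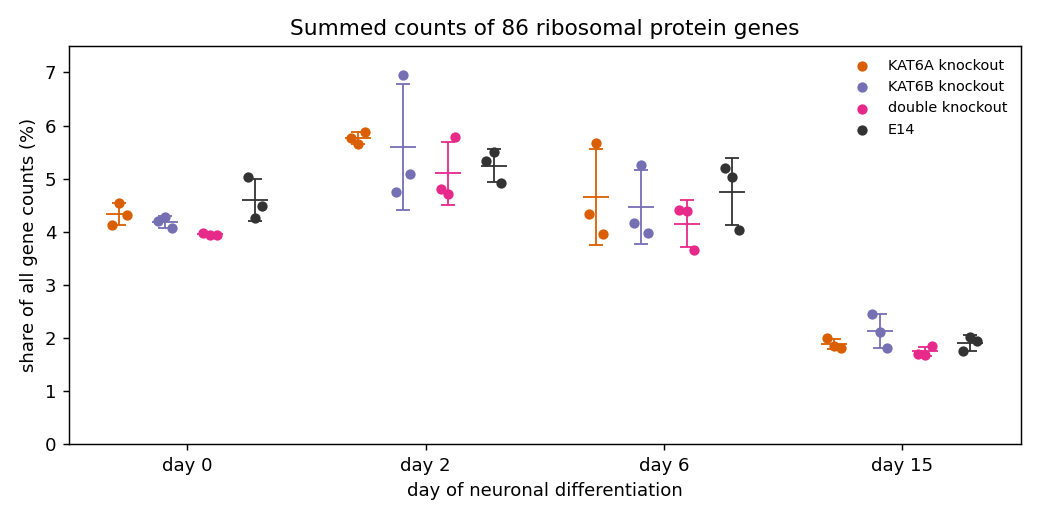
Share of all gene counts (%) taken by the 86 ribosomal protein genes in each of the 48 libraries, by day and genotype, with mean and SD bars (n = 3). All 12 day 15 libraries lie between 1.68% and 2.45%, and all earlier libraries lie at 3.65% or above.

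Libraries stood apart within groups. At day 2 the KAT6B knockout held 4.75%, 6.95% and 5.08%, so that replicate 2 was the highest of all 48 libraries. At day 6 replicate 3 was the lowest library in all 4 genotypes (3.96%, 3.98%, 3.65% and 4.04% in the KAT6A knockout, KAT6B knockout, double knockout and E14). At day 0 the E14 libraries held 5.03%, 4.26% and 4.49%, with replicate 1 the highest. That replicate also had the lowest total count of all 48 libraries (22499375), and the part of depth in its values was not tested.

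Levels in CPM can be compared between genes only per length. Divided by the length of the shortest principal transcript in the mouse GENCODE annotation, core genes at day 0 in E14 had a median of 815 CPM per kb, with a middle range of 547 to 1174. Rpl41, which encodes the shortest ribosomal protein, was highest at 2968 CPM per kb and Rpl29 lowest at 58.6 CPM per kb. The transcripts listed for Rps20, Rpl5, Rps3 and Rps24 are long, which lowers their values per kb. Next to Rpl41 stood Rpl8 at 1920 and Rps14 at 1661 CPM per kb, and next to Rpl29 stood Rpl34 at 147 CPM per kb. Ribosomal protein genes have many processed pseudogenes and close copies, and how reads with several matches were counted is not given, so the level of any one gene is uncertain. The entries named with -ps took 0.00126% to 0.00475% of the counts. On GRCm39, 27 of the 86 members overlap another entry of the table, 23 of them one on the opposite strand, and their counts may include each other's reads.

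Day 15 cells were compared with day 0 cells in E14 to ask how these genes move over the differentiation, which gave cultures of mixed markers. Almost the whole set fell: 85 of 86 members were lower at day 15 and none was higher (edgeR's quasi-likelihood test, Benjamini-Hochberg adjusted p under 0.05), where 33.2% of all 20503 genes tested were lower and 36.5% higher. The median log2 change of the members was -1.41, against 0.08 over all genes. With library totals alone the median over all genes moved by 0.17, the member median was -1.24 and 85 members were again lower. All 76 core genes were lower in every day 15 library than in every day 0 library, and over all genes 34.7% showed this. Core changes ran from -2.0 to -0.65, with medians of -1.34 in the small subunit, -1.43 in the large subunit and -1.39 in the stalk. Most of the fall came after day 6: 83 of 86 members were lower at day 15 than at day 6, with a median of -1.13, where 27.3% of all genes were lower and as many higher. The E14 marker sums given above moved over the same days, and their part in the fall was not tested.

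Rps2, a small-subunit protein at the mRNA entry, had the largest fall of the core genes. It had 297, 365 and 338 CPM at day 15 against 2053, 894 and 1161 CPM at day 0. All day 15 values lay far under all day 0 values, although replicate 1 at day 0 was well above the others. The log2 change was -2.0 ± 0.25 (SE, n = 3 each, adjusted p = 8.24e-06). Rpl12, which forms the base of the stalk, had 193, 244 and 227 CPM at day 15 against 984, 757 and 844 CPM at day 0, a log2 change of -1.92 ± 0.18 (adjusted p = 3.57e-07). Rpl8, next to the peptidyl transferase centre, had 403, 475 and 424 CPM at day 15 against 1920, 1382 and 1599 CPM at day 0, a change of -1.87 ± 0.14 (adjusted p = 7.65e-08). These 3 genes did not overlap between the days.

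The smallest falls of the core set were those of Rps27, Rpl39, Rpl31 and Rps15a, of which Rpl39 and Rpl31 lie at the exit of the peptide tunnel. Rps27, a zinc-finger protein of the small subunit, had 107, 119 and 115 CPM at day 15 against 140.2, 217 and 194 CPM at day 0 (log2 change -0.65 ± 0.16, adjusted p = 0.00286). Rpl39, the smallest protein of the tunnel wall, changed by -0.81 ± 0.16 (adjusted p = 0.000394), with 107, 116 and 113 CPM against 217, 205 and 183 CPM. Rpl31 changed by -0.84 ± 0.16 and Rps15a by -0.87 ± 0.13. The day 0 values of Rps27 were lowest in replicate 1, the library in which Rps2 was highest. The 8 genes listed for the tunnel exit all fell, with a median of -1.12, against -1.54 for the 6 genes listed for the head and mRNA entry of the small subunit. In E14 the tunnel exit genes summed to 4124 to 4354 CPM at day 0 and 1728 to 1974 CPM at day 15. The head and entry genes had uneven day 0 sums of 3820 to 6194 CPM, and 1423 to 1692 CPM at day 15. Tunnel exit sums at day 0 were 4415 to 4945, 4261 to 4363 and 3959 to 4030 CPM in the KAT6A, KAT6B and double knockouts. At day 15 they were 2002 to 2230, 2177 to 2506 and 1928 to 2174 CPM. Head and entry sums in these lines were 3910 to 4518, 3820 to 3977 and 3481 to 3738 CPM at day 0. At day 15 they were 1552 to 2108, 1656 to 2184 and 1594 to 1670 CPM. The medians are descriptions of lists in E14 alone and their difference was not tested.

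Each role represented in the set fell, which follows from the fall of every core gene. The stalk proteins Rplp0, Rplp1 and Rplp2 changed by -1.31 ± 0.12, -1.39 ± 0.14 and -1.61 ± 0.19 at day 15. Rplp0 had 309, 373 and 349 CPM at day 15 against 812, 912 and 915.5 CPM at day 0. Rpl5 and Rpl11, which join 5S RNA in a particle that can bind Mdm2 and stabilise p53, changed by -1.66 ± 0.14 and -1.70 ± 0.25. All 12 genes listed for Diamond-Blackfan anaemia, a human red cell disease of ribosome shortage, fell, with a median of -1.22. Rps19, the gene named most often in that disease, had 225, 269 and 252 CPM at day 15 against 556, 493 and 590.0 CPM at day 0 (change -1.09 ± 0.12, adjusted p = 2.0e-06). Rps6, the substrate of S6 kinase, changed by -1.35 ± 0.12. Rps3a1, Rpl24 and Rplp1, the genes nearest the medians of their groups, changed by -1.33 ± 0.18, -1.44 ± 0.13 and -1.39 ± 0.14.

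**Figure D2:**
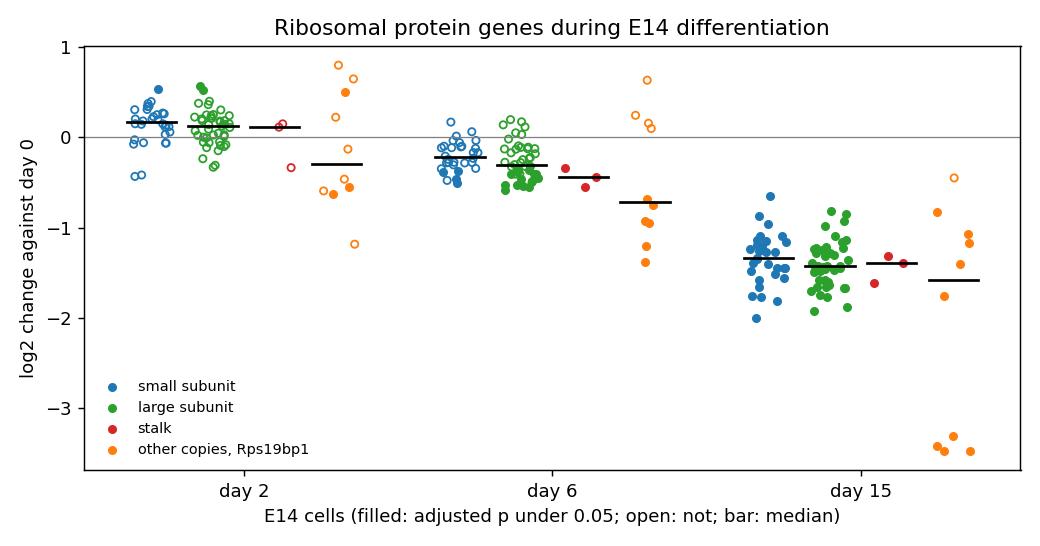
Log2 change of each of the 86 genes in E14 cells at days 2, 6 and 15 against day 0, by group (filled points: adjusted p under 0.05, open points: not, bars: medians). At day 15 all core genes lie between -2.0 and -0.65, and Rpl39l, Rps23rg1, Rpl10l and Rpl3l lie between -3.47 and -3.31.

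At the earlier days the genes moved little. At day 2, 4 of 86 members were higher and 2 lower than at day 0, where 9.5% and 12.1% of all genes were higher and lower. The median was 0.14, and 27 members were higher in every day 2 library than in every day 0 library (19.7% of all genes). The higher ones were Rpl17 (506 ± 44.2 CPM at day 2, 341 ± 80.7 CPM at day 0, change 0.57 ± 0.16, adjusted p = 0.0259) and Rpl26 (change 0.52 ± 0.15, adjusted p = 0.0255), both near the tunnel exit, Rps27 (0.53 ± 0.16, adjusted p = 0.0342) and Rpl22l1 (0.50 ± 0.17, adjusted p = 0.0497). The lower ones were Rpl7l1 (-0.54 ± 0.13, adjusted p = 0.00902) and Rps19bp1 (-0.63 ± 0.16, adjusted p = 0.0164). None of the 6 held in every fit that left out 1 library. No member was called without replicate 3 of day 0 or without replicate 2 of day 2. Without replicate 1 of day 0, 2 were called and both were lower, and without replicate 1 of day 2, 1 was called and was lower. Without replicate 2 of day 0, 13 were called. With library totals alone 13 members were higher and 2 lower, with a median of 0.24.

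At day 6, 29 of 86 members were lower than at day 0 and none was higher, where 24.2% of all genes were lower and 25.8% higher. The median was -0.28, and 23 of the 29 were core genes, 4 of the small subunit, 16 of the large subunit and all 3 of the stalk. Rpl7a changed by -0.59 ± 0.12 (543 ± 41.1 CPM at day 6, 836 ± 80.2 CPM at day 0, adjusted p = 0.000968) and Rpl21 by -0.55 ± 0.13 (adjusted p = 0.00269). Rpl17, Rpl26 and Rps27 had log2 changes of 0.12, 0.20 and 0.17 and were not called. This count moved with the scaling. With library totals alone the median over all genes moved by 0.31 on the log2 scale, 8 members were higher and 3 lower, and the member median was 0.03. Without replicate 3 of day 6, the E14 library with the lowest share of that day, 10 members were lower, and 9 of the 29 held in every fit that left out 1 library.

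The extra copies did not all move like the core genes. Rpl39l and Rpl10l, copies best known from the mouse testis, were called lower at days 6 and 15. Both day 6 calls failed in 4 of the 6 fits without 1 library, where the highest adjusted p was 0.129 for Rpl39l and 0.0786 for Rpl10l. Rpl39l had 18.9, 15.6 and 26.1 CPM in E14 at day 0, 13.7, 15.1 and 11.5 CPM at day 2, 7.98, 11.5 and 6.27 CPM at day 6 and 0.538, 3.30 and 1.35 CPM at day 15. Its log2 change at day 15 was -3.47 ± 0.48 (adjusted p = 1.88e-05), where that of its core partner Rpl39 was -0.81 ± 0.16. The 3 later days lay wholly under day 0, and within day 15 the libraries spread widely. Rpl10l had 0.856, 4.87 and 1.96 CPM at day 15 against 31.5, 20.7 and 33.8 CPM at day 0 (change -3.42 ± 0.48, adjusted p = 2.31e-05), where Rpl10 changed by -0.98 ± 0.12. Per length, Rpl39l made up 10.1% ± 3.15 of the sum of Rpl39 and Rpl39l at day 0, 5.38% ± 0.0772 at day 2, 4.58% ± 1.26 at day 6 and 1.65% ± 1.29 at day 15 in E14.

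The remaining copies differed. Rps23rg1, an Rps23 retrogene, had 2, 27 and 21 counts in E14 at day 15 against 82, 118 and 97 counts at day 0 (change -3.47 ± 0.48, adjusted p = 1.83e-05). Rpl3l, the heart and skeletal muscle copy of Rpl3, had 0, 9 and 6 counts in E14 at day 15 against 19, 33 and 32 counts at day 0 (change -3.31 ± 0.62, adjusted p = 0.000277), and 0, 0 and 0 counts in the KAT6B knockout at day 15. Per length, Rpl22l1 made up 18.4% ± 3.02, 21.1% ± 0.630, 18.5% ± 0.692 and 18.9% ± 2.24 of the sum with Rpl22 in E14 at days 0, 2, 6 and 15. Its share was lower in all day 15 than in all day 0 libraries of the KAT6A knockout (15.9% ± 1.11 against 20.0% ± 0.363) and of the double knockout (15.8% ± 1.32 against 20.4% ± 0.907). In the KAT6B knockout the days overlapped (16.6% ± 1.54 at day 15 against 18.3% ± 2.48 at day 0). The E14 libraries of day 0 alone ran from 15.4% to 21.4%, and these shares of Rpl22l1 were not tested. Rps27l, a target of p53, was already lower at day 6, at 57.7, 74.5 and 50.0 CPM against 76.3, 114.5 and 110.0 CPM at day 0 (change -0.69 ± 0.18, adjusted p = 0.00611). At day 15 it was lower than at day 0 by a log2 change of -0.83 ± 0.18, and between days 15 and 6 the change of -0.14 was not called (adjusted p = 0.521). Rpl36al fell by day 6 too (-0.74 ± 0.13), and Rps19bp1 changed by -0.95 ± 0.16 at day 6 and -1.07 ± 0.16 at day 15. Rps27rt, an Rps27 retrogene, was the only member not called at day 15 in E14 (-0.45 ± 0.32, adjusted p = 0.22). Being a near copy of Rps27, its level depends on how shared reads were counted.

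Rps27l and Rpl36al had their lowest share beside their partners at day 6, in every genotype. Per length, Rpl36al made up 38.1% ± 1.10 of the sum with Rpl36a at day 0 in E14, 33.3% ± 1.94 at day 2, 26.6% ± 2.63 at day 6 and 39.4% ± 0.909 at day 15 (SD, n = 3 each). The day 6 means were 29.6%, 27.7% and 28.3% in the KAT6A, KAT6B and double knockouts, and all day 6 libraries of each line lay below all its day 0 and day 15 libraries. Rps27l made up 27.4% ± 0.705, 23.4% ± 0.547, 17.3% ± 2.03 and 24.9% ± 1.82 of the sum with Rps27 at days 0, 2, 6 and 15 in E14. Its day 6 means were 20.6%, 17.1% and 20.9% in the KAT6A, KAT6B and double knockouts. In the double knockout the day 6 libraries (18.6% to 23.4%) overlapped those of day 15 (22.7% to 27.5%). These shares are descriptions and were not tested.

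Rpl39l and Rpl10l fell in the knockout lines too. Rpl39l had 2.85, 3.30 and 1.63 CPM at day 15 against 22.6, 26.1 and 24.2 CPM at day 0 in the KAT6A knockout. It had 1.15, 2.90 and 2.15 CPM at day 15 against 27.8, 13.5 and 22.1 CPM at day 0 in the KAT6B knockout, and 2.03, 0.597 and 1.67 CPM against 26.7, 22.6 and 26.9 CPM in the double knockout. The days did not overlap in any line, and the log2 changes were -3.18 ± 0.27, -3.22 ± 0.48 and -4.16 ± 0.35 in the KAT6A, KAT6B and double knockouts. Those of Rpl10l were -3.75 ± 0.27, -3.71 ± 0.47 and -4.18 ± 0.37. At day 15 Rpl39l and Rpl10l of each knockout overlapped E14, and no difference was called.

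**Figure D3:**
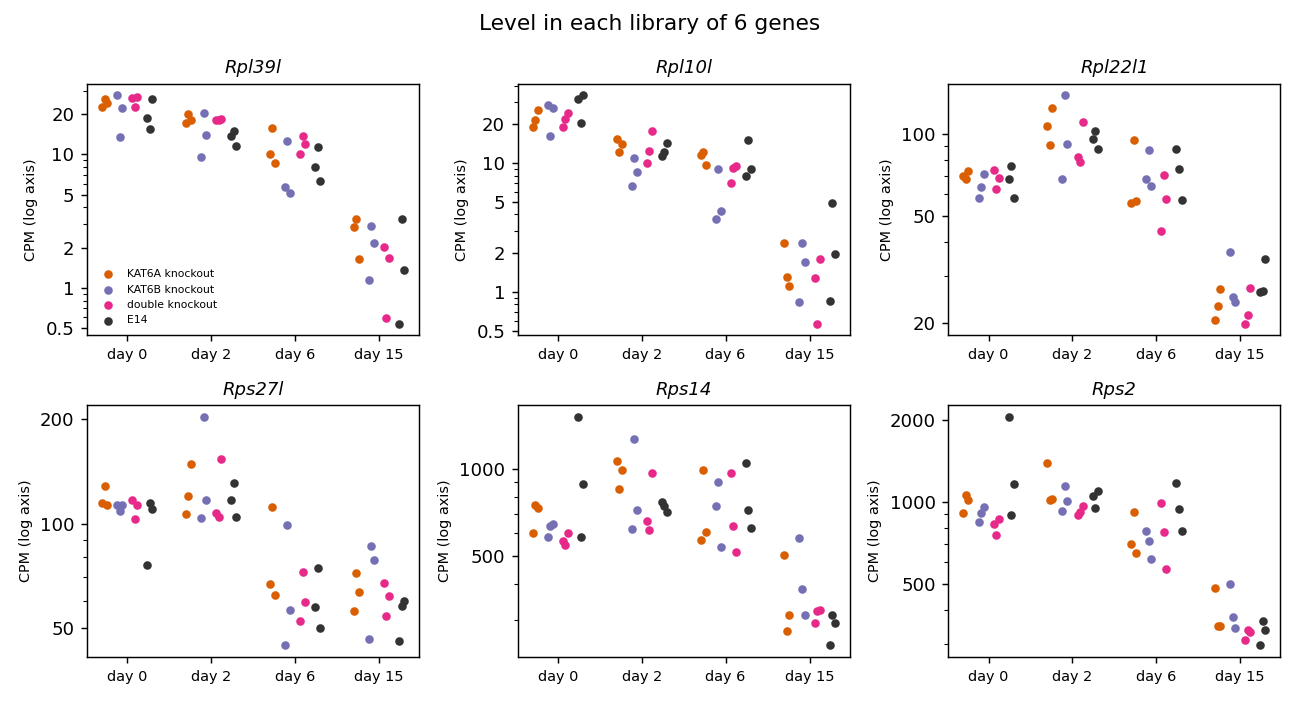
CPM (log axis) in each library of 6 genes by day, with the knockout lines and E14 side by side in each day. Every day 15 library of Rpl39l, at 3.30 CPM or below, lies below every earlier library, and Rps14 and Rps2 each have 1 E14 library at day 0, at 1507 and 2053 CPM, above all other libraries of that gene.

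The same fall took place in each knockout line. At day 15 against day 0 of the same line, 86 of 86 members were lower in the KAT6A knockout, 80 in the KAT6B knockout and 85 in the double knockout, where 32.9%, 28.2% and 34.1% of all genes were lower. Member medians were -1.28, -0.94 and -1.16, against -1.41 in E14. Of the 6 members not called in the KAT6B knockout, Rps14 had a log2 change of -0.44 (adjusted p = 0.197), Rpl39 by -0.44 (adjusted p = 0.102), Rpl41 by -0.51 (adjusted p = 0.0891) and Rps28 by -0.51 (adjusted p = 0.0568), and the other two were Rps27l and Rps27rt. In each line all 76 core genes were lower in every day 15 library than in every day 0 library of that line, where 36.7%, 34.7% and 36.2% of all genes were. Rpl8, Rps12 and Rpl12 were among the 5 largest core falls in E14 and in each line.

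Whether a knockout altered the fall was tested as the difference of the day 15 minus day 0 changes from those of E14. No member was called in the KAT6A knockout, the KAT6B knockout or the double knockout, where 0%, 0.684% and 1.55% of 21651 genes were called. Before adjustment 3, 48 and 20 members had a p under 0.05, where 8.16%, 18.4% and 18.6% of all genes did, and DESeq2 called 0, 2 and 0. The member medians of this difference were 0.10, 0.32 and 0.20 in the KAT6A, KAT6B and double knockouts. With library totals alone they were 0.02, 0.19 and -0.01, and the medians over all genes moved by -0.08, -0.14 and -0.21. The lowest adjusted p of the KAT6B knockout was that of Rpl19, a large-subunit protein near the tunnel exit, with a difference of 0.55 (adjusted p = 0.0732). At day 15 Rpl19 stood at 708, 768.5 and 680.2 CPM in the KAT6B knockout, against 483, 545 and 524 CPM in E14. At day 0 the KAT6B knockout had 1134, 1106 and 1105 CPM of it, against 1269.5, 1086 and 1160 CPM in E14. Without E14 day 0 replicate 2, 12 members were called in the KAT6B knockout. The 3 tests share the E14 libraries.

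Each knockout was then set against E14 of the same day, to ask whether loss of the acetyltransferases moves the ribosomal protein genes. Across the 12 comparisons 1 call was made among the members. Rpl13, a large-subunit protein, was lower in the double knockout at day 0 (1 of 86, where 0.792% of 18935 genes were lower and 2.09% were called in either direction). It had 774, 768 and 798 CPM in the double knockout against 1043, 911 and 1096 CPM in E14. The groups did not overlap, and the log2 change was -0.41 ± 0.09 (adjusted p = 0.0325). In the fit of all 48 libraries the change was -0.38 and was not called (adjusted p = 0.264), and without any 1 of 5 libraries no member was called. DESeq2 called 15 members lower, and leaving out E14 replicate 2 gave 33.

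At day 0 the members leaned low in the double knockout. Of 86, 77 had a log2 change below 0, 41 had an unadjusted p under 0.05, where 18.2% of all genes did, and the median was -0.20. Of the 76 core genes, 40 were lower in every double knockout library than in every E14 library, where 7.68% of all genes were. The medians were -0.06 and -0.11 in the KAT6A and KAT6B knockouts, with no member called by edgeR (6 and 22 at an unadjusted p under 0.05, where 4.75% and 11.8% of all genes were, and 0 in each by DESeq2). Over all genes edgeR called 0% and 0.0106% there. The share of counts was 3.98%, 3.94% and 3.94% in the double knockout, below the 5.03%, 4.26% and 4.49% of E14. The 8 naive pluripotency markers summed at day 0 to 2013 to 2488 CPM in the double knockout, 2078 to 2223 CPM in the KAT6B knockout and 2629 to 2718 CPM in the KAT6A knockout, against 2636 to 3102 CPM in E14. The 6 mesenchyme markers summed to 534 to 824 CPM in the double knockout, 95.4 to 246 CPM in the KAT6B knockout and 378 to 693 CPM in the KAT6A knockout, against 192 to 301 CPM in E14. No marker of either list was at 0 in a group, and their part in the ribosomal values was not tested.

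The E14 control at day 0 is uneven for some members. Rps14, a platform protein of the small subunit, had 564, 545 and 602 CPM in the double knockout, 582, 636.5 and 647 CPM in the KAT6B knockout and 599.5, 747 and 729 CPM in the KAT6A knockout, against 1507, 583 and 884 CPM in E14. Its changes of -0.83, -0.70 and -0.58 were the lowest core changes of each line and none was called (adjusted p = 0.0775, 0.31 and 0.93). Rps2 and Rpl11 came next in each line and had the same pattern in E14: Rpl11 had 996, 485 and 598 CPM. Replicate 1 was the highest E14 library for all 3 genes, and replicate 2 lay below all 3 KAT6A knockout libraries for each. The 3 comparisons share these control libraries. Over the 16 groups Rps14 had the largest spread between replicates of the core genes (pooled SD 0.36 on the log2 scale, where the core median was 0.22), followed by Rpl34 at 0.35 and Rpl11 at 0.30. Rps14 was also high in replicate 1 at day 15 of the KAT6A knockout (502, 276.5 and 312 CPM) and of the KAT6B knockout (576 CPM, then 385 and 314 CPM).

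At day 2 no member was called in the KAT6A, KAT6B or double knockout, where 0.0102%, 0% and 1.12% of 19594 genes were called. DESeq2 called none, and an unadjusted p under 0.05 was reached by 0, 1 and 1 members and by 10.3%, 4.06% and 12.7% of all genes. Medians were 0.16, 0.09 and -0.06, with 78, 73 and 20 of 86 members above 0. In the KAT6A, KAT6B and double knockouts 30, 1 and 2 members lay wholly above E14, where 10.5%, 4.9% and 12.4% of all genes did. Wholly below E14 lay 1, 2 and 2 members, where 9.66%, 5.03% and 9.51% of all genes did. The share of counts in the KAT6A knockout was 5.77%, 5.65% and 5.88% and lay wholly above the 5.33%, 5.50% and 4.91% of E14. In the KAT6B knockout replicate 2 alone lay above all E14 libraries, and without it the median was -0.15.

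At day 6 no member was called in the KAT6A, KAT6B or double knockout, where 0%, 0.0292% and 0.0682% of 20533 genes were called (0, 2 and 5 members at an unadjusted p under 0.05, where 5.3%, 13% and 8.12% of all genes were, and none by DESeq2). In the double knockout 84 of 86 log2 changes were below 0, with a median of -0.26, against -0.02 and -0.04 in the KAT6A and KAT6B knockouts. The shares were 4.42%, 4.39% and 3.65% in the double knockout, which overlapped the 5.20%, 5.03% and 4.04% of E14. Replicate numbers appeared to pair these libraries, by correlations of deviations of 0.15, 0.17 and 0.46. Replicate 3 was the lowest in both, as in all 4 genotypes at day 6. The double knockout was below E14 in each of the 3 replicate numbers. The fit with the replicate block called 0 members. Rpl13 was again the member with the lowest p in the double knockout, with 678, 729 and 596 CPM against 927, 989 and 813 CPM in E14 (change -0.47, adjusted p = 0.417). The medians of its leave-one-out fits ran from -0.37 to -0.17.

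At day 15 no member of 85 tested was called in the KAT6A, KAT6B or double knockout, where 0%, 0.0742% and 3.18% of 20225 genes were called. At an unadjusted p under 0.05 there were 1, 12 and 0 members, where 11.4%, 20% and 24.6% of all genes were, and DESeq2 called 0, 1 and 0. Rpl3l was too low to be tested. Medians were 0.07, 0.23 and 0.03, and with library totals alone -0.04, 0.11 and -0.15, with all-gene medians moved by -0.11, -0.12 and -0.18. In the KAT6B knockout 81 of 85 members were above 0, and 33 of the 76 core genes lay wholly above E14, where 14.1% of all genes did. Rpl23a, near the tunnel exit, had 376.5, 344 and 286 CPM in the KAT6B knockout against 229, 259 and 255 CPM in E14 (change 0.43, adjusted p = 0.125). The KAT6B knockout shares of 2.45%, 2.12% and 1.81% overlapped the 1.75%, 2.03% and 1.95% of E14. At day 15 the neuron markers summed to 353 to 1388 CPM in the KAT6A knockout, 67.1 to 962 CPM in the KAT6B knockout and 148 to 887 CPM in the double knockout, against 1481 to 2666 CPM in E14. The 6 neural progenitor markers summed to 315 to 499.7 CPM in the KAT6A knockout, 91.8 to 268 CPM in the KAT6B knockout and 50.2 to 246 CPM in the double knockout, against 626 to 762 CPM in E14. Mesenchyme markers summed to 2746 to 6721 CPM in the KAT6A knockout, 5014 to 17709.6 CPM in the KAT6B knockout and 7883 to 8605 CPM in the double knockout, against 2004 to 4341 CPM in E14. None of these markers was at 0 in a group, and their part in the ribosomal values was not tested.

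**Figure D4:**
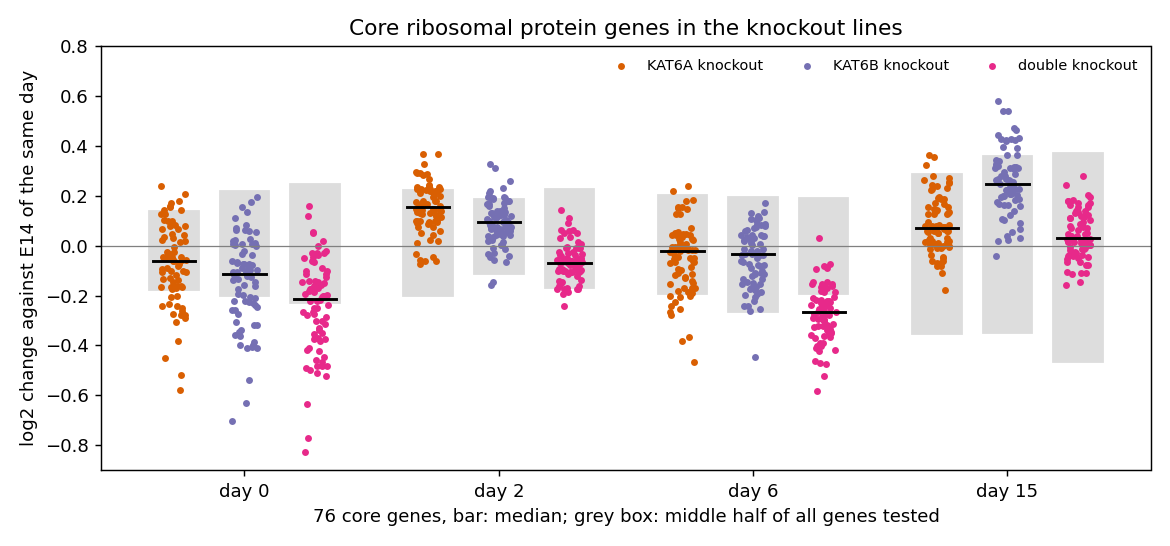
Log2 change of the 76 core genes in each knockout against E14 of the same day (points: genes, black bars: medians, grey boxes: lower to upper quartile of all genes tested). Core medians lie between -0.27 for the double knockout at day 6 and 0.25 for the KAT6B knockout at day 15.

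The genes of ribosome production were set beside the members in E14, as lists chosen with earlier results of these data known. Ribosome assembly factors, which process ribosomal RNA and build the subunits, were lower from day 2 on. Of 25, 14 were lower at day 2, 25 at day 6 and 25 at day 15 against day 0. Of all genes 12.1%, 24.2% and 33.2% were lower at these days. The medians of the assembly factors were -0.45, -1.36 and -2.18, where core ribosomal protein genes had medians of 0.14, -0.28 and -1.41. Rrp9, a protein of the U3 small nucleolar particle, changed by -1.18, -2.06 and -2.98 (edgeR adjusted p = 0.00192, 4.92e-06 and 4.46e-08). Dkc1, the pseudouridine synthase of the nucleolus, had -0.13 at day 2, which was not called (edgeR adjusted p = 0.613), and -3.07 at day 15 (edgeR adjusted p = 6.87e-09). RNA polymerase I genes were lower in 6, 12 and 12 of 12, against the same shares of all genes, with medians of -0.36, -1.01 and -1.62. Polr1b, its second largest subunit, changed by -0.65, -1.81 and -2.73.

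Translation genes with a known terminal oligopyrimidine tract gave 1 higher and 2 lower of 15 at day 2, and 10 and 15 lower at days 6 and 15, with medians of -0.03, -0.49 and -1.39. Of all genes 12.1%, 24.2% and 33.2% were lower and 9.5%, 25.8% and 36.5% higher at these days. Eef1d, a subunit of the elongation factor that recycles eEF1A, was lower at day 2 (-0.72, adjusted p = 0.0176), and Eef1a1, which carries aminoacyl-tRNA to the ribosome, was higher (0.44, adjusted p = 0.0205). Each of these day 2 calls failed in 4 of the 6 fits without 1 library, where the highest adjusted p was 0.069 for Eef1d and 0.0891 for Eef1a1. Npm1, a nucleolar chaperone, changed by -2.63 at day 15. Hosts of small nucleolar RNAs gave 0, 7 and 11 lower of 11, with Snhg12 at -1.42 at day 6. Rpsa, Fau and Rack1 were not called at days 2 and 6 and fell at day 15, with log2 changes of -1.47, -1.44 and -1.22. Of 15 growth regulators, 3, 10 and 12 were lower and 2, 1 and 1 higher at days 2, 6 and 15, against the shares of all genes just given. Myc, the transcription factor that drives ribosome genes, changed by -2.02 at day 2 (adjusted p = 0.00122) and Mycn by -1.22, -2.06 and -2.72. The day 2 call of Mycn failed in 3 of the 6 edgeR fits without 1 library, where the highest adjusted p was 0.082. Of 10 proliferation genes, 0, 6 and 10 were lower and 1 was higher at day 2, and their part in the ribosomal values was not tested. In the 3 knockouts no assembly factor, RNA polymerase I gene or tract-bearing translation gene was called against E14 at any day. Few genes of any kind were: by day, 0% to 0.0742% of all genes in the single knockouts and 0.0682% to 3.18% in the double knockout.

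**Figure D5:**
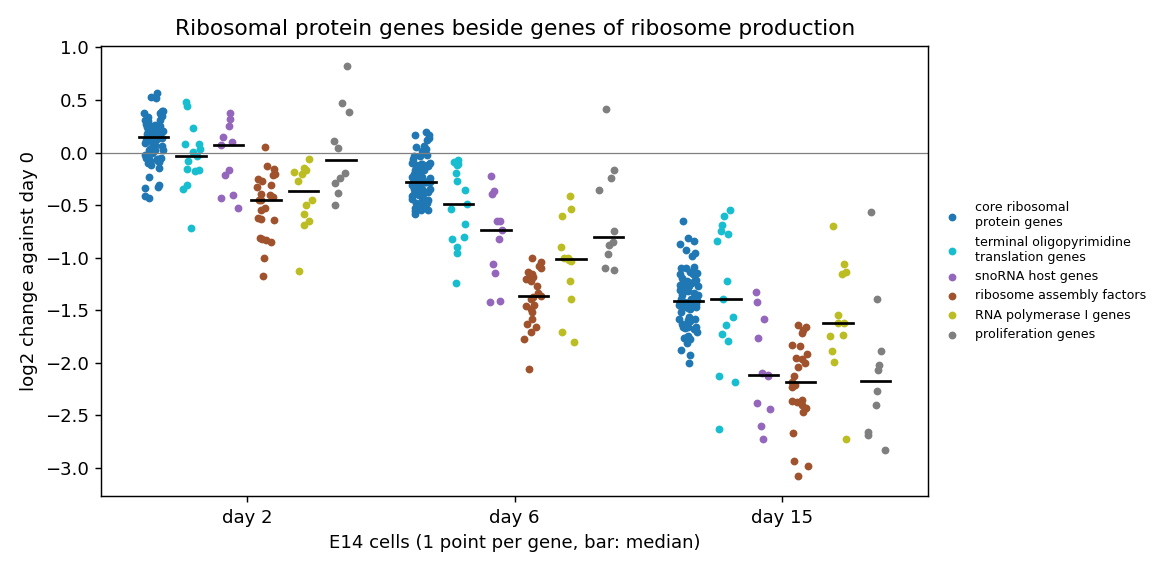
Log2 change against day 0 in E14 of core ribosomal protein genes and of 5 lists of related genes (points: genes, bars: medians). At day 6 the assembly factors lie at a median of -1.36 and the core ribosomal protein genes at -0.28.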

How the data were processed

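RNA-seq was done on 48 mouse libraries. The authors deposited raw gene counts, which were whole numbers, and per the submitters' processing notes reads were aligned with HISAT2 to GRCm39. The version of HISAT2, the counting program, its strand setting and its treatment of reads with several matches were not given in the sources used here. Of 36983 entries, 48 that repeat an identifier were left out.

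Genes with low counts were removed with filterByExpr (minimum count 10, minimum total 15), and edgeR 4.0.16 in R 4.3.3 was run with TMM scaling, robust quasi-likelihood fits and Benjamini-Hochberg adjustment over all genes tested, with calls at an adjusted p under 0.05. Fits used the 12 E14 libraries, the 12 libraries of each day, the 24 libraries of days 0 and 15 for differences of change, and the 12 libraries of each knockout line. The comparison of E14 day 15 with day 6 and those within each knockout line were added after the data were seen. A standard error is the log2 change divided by the square root of F. The fits were tested on simulated data. Depth was 22499375 to 72229461 counts, and the spread between replicates sets the precision.

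The members and lists were chosen with earlier results of these data known. Genes were named by rule: in each comparison up to 6 called members in each direction and those nearest the medians of the subunits, all extra copies, the 4 highest and 4 lowest by mean, and up to 4 called genes of each list at day 15 or 2 otherwise. Rpl39, Rpl31, Rps15a, Rpl5, Rpl11, Rps14, Rps28, Rpl23a and other members named by role, by rank within the core set or by their spread were chosen after their values were seen. Replicate numbers were checked for pairing by the correlation of deviations. For the double knockout and E14 at day 6 all 3 were over 0.1 (0.15, 0.17 and 0.46), and for the other comparisons not all were. For E14 day 15 against day 6 they were 0.17, 0.26 and 0.099. For the double knockout and E14 at day 0 they were 0.15, 0.088 and 0.33. In these 3 comparisons and E14 day 6 against day 0, each library of the group named first correlated best with its own number. Some pairing beyond the double knockout at day 6 is thus possible. Alternatives were RLE scaling, library totals alone, TMM without the members, no filter, DESeq2 1.42.0, all libraries in 1 fit, a replicate block and leaving out each library.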

Additional observations from a re-analysis of the deposited data

Results flagged for a closer look

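In 4 cases among the genes covered by the naming rule all libraries of a knockout lay above E14 at day 15 and below it at day 0. Not all of these genes were named in the text above. They are given because they show this pattern. Over the 86 members 2 showed it in the KAT6B knockout (Rpl35 and Rpl35a) and 4 in the double knockout (Rps28, Rpl36, Rpl13a and Rpl28), where 0.619% and 0.97% of 21651 genes did. The tests of these differences of change did not pass the threshold after adjustment over all genes. Rps28 in the double knockout averaged 198.3 ± 15.5 CPM at day 15 against 162.3 ± 9.28 CPM in E14, and 308.3 ± 7.22 CPM at day 0 against 356.6 ± 26.1 CPM in E14 (SD, n = 3 each, edgeR difference 0.50, adjusted p = 0.169). Rpl35 in the KAT6B knockout averaged 193.9 ± 17.9 CPM at day 15 against 161.0 ± 9.77 CPM in E14, and 397.2 ± 4.84 CPM at day 0 against 445.3 ± 46.6 CPM in E14 (edgeR difference 0.43, adjusted p = 0.135). Rpl36 in the double knockout averaged 167.6 ± 5.60 CPM at day 15 against 146.9 ± 12.5 CPM in E14, and 327.3 ± 2.40 CPM at day 0 against 450.4 ± 106.1 CPM in E14 (edgeR difference 0.65, adjusted p = 0.174). Rpl13a in the double knockout averaged 522.0 ± 15.1 CPM at day 15 against 455.7 ± 42.7 CPM in E14, and 1173 ± 10.2 CPM at day 0 against 1587 ± 448 CPM in E14 (edgeR difference 0.63, adjusted p = 0.203). The E14 day 0 libraries of Rpl36 and Rpl13a were far apart, with replicate 1 the highest.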

How the results depend on the processing

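With RLE scaling and with TMM factors computed without the members, all 22 counts of called members were within 1.5 times of the values given. For E14 day 2 against day 0 (6 called) the count was 15 with library totals alone (13 higher), 10 with the replicate block and 5 in the fit of all 48 libraries (2 higher, 3 lower). It ran from 0 to 13 when 1 library was left out, with 2 and 1, all lower, without replicate 1 of day 0 or of day 2. For E14 day 6 (29) it was 11 with library totals alone (8 higher) and 10 to 33 with 1 library left out. For the double knockout at day 0 (1) it was 7 without the filter, 15 with DESeq2, 0 with all libraries and 0 to 33 with 1 left out, the 33 without E14 replicate 2. That library left out also gave 18 for the KAT6B knockout at day 0, otherwise 0. For the KAT6B knockout at day 15 DESeq2 gave 1 and the fit of all libraries 4, which gave 1 for the double knockout. For the difference of change, the KAT6B knockout had 2 with DESeq2, 2 with all libraries and 0 to 12 with 1 left out, and the double knockout 0 to 1. The falls at day 15 gave 85 to 86 in E14, 86 to 86 in the KAT6A knockout, 72 to 83 in the KAT6B knockout and 85 to 85 in the double knockout, and day 15 against day 6 gave 83 to 83. The replicate block changed no other count by over 1.5 times, and where all 3 pairing correlations were over 0.1 (double knockout at day 6) it gave 0. The cause of these changes was not tested.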
